A study of Caenorhabditis elegans with 2 samples.

Results

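The 1276 regions described here lay just below the thresholded peak list of a chromatin immunoprecipitation with sequencing (ChIP-seq) experiment on FKH-10 in third-stage (L3) larvae of Caenorhabditis elegans. They were chosen by the signal that the authors' peak caller gave each region of the pooled list on genome build ce11: a signal from 20 up to but not including 28, and no overlap of 1 bp or more with a thresholded peak. They made up 4.25% of the 30000 pooled regions. The rule used the pooled signal, so signals, ranks and replicate values are given as a description with no test. Location and sequence were tested, as the rule used position only to leave out regions that overlap a thresholded peak.

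The series held 1 group of 2 biological replicates of whole L3 larvae, pooled male and female, with no second condition. Their strain, OP337, has the allele unc119(ed3) and the integrated transgene wgIs377. That transgene fuses fkh-10 to the tags TY1, EGFP and FLAG and brings in unc119. The label note gives a C-terminal GFP-FLAG tag and 1 transgenic line, the chromatin came from all tissues mixed, and it was sheared by sonication.

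FKH-10 belongs to the forkhead, or winged helix, family of transcription factors. The DNA-binding domain of this family inserts a helix into the major groove, and many of its members prefer a core in which a purine and the bases TAAA are followed by a pyrimidine and an A. In a ChIP-seq peak list, regions are ranked by how far the reads over them exceed the control, and a comparison of replicates is used to decide how far down the ranking the list is kept.

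Several sequences at member summits are printed here because the results below turn on them. Each reaches 50 bp to both sides of a summit, on the plus strand of build ce11, with the named letters in capitals on whichever strand they occur. The first 3 hold the forkhead form GTAAACA and have windows with no annotated UTR. They are among such members whose worse rank of the 2 replicate lists was best.
W02H5.16, chrV:2638575-2638675: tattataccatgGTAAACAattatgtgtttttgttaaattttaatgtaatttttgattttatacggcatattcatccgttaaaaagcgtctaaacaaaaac
lfi-1, chrX:4982342-4982442: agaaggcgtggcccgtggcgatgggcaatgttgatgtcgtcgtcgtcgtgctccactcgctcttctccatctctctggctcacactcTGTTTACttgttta
wht-3, chrIII:4137200-4137300: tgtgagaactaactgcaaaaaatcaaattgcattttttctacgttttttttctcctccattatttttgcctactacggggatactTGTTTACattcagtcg
The next 2 lie on tRNA genes, whose bases are in capitals, and were picked after their values were seen.
Y43D4A.t2, tRNA-Gly, chrIV:16776088-16776188: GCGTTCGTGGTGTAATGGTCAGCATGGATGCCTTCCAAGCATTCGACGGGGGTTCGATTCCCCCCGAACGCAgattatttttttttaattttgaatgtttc
F52H2.t1, tRNA-Asp, chrX:2553574-2553674: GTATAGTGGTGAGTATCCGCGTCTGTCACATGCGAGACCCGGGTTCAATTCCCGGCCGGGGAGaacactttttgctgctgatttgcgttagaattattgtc
The last 4 show GA-rich words that were more common at member summits than beside them. They are GAGACGC (at 4.70% of member summits) at gdi-1 and cnnm-3, and CTCTCTC (at 6.82%) at trk-1 and M117.1.
gdi-1, chrIV:14794322-14794422: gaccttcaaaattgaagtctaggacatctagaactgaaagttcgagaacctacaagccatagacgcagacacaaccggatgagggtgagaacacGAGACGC
cnnm-3, chrX:3049371-3049471: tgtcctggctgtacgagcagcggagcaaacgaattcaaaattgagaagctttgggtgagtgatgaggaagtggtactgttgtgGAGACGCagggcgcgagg
trk-1, chrX:8952040-8952140: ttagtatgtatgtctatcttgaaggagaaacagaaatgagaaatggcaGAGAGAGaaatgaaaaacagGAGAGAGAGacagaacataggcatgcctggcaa
M117.1, chrIV:11813682-11813782: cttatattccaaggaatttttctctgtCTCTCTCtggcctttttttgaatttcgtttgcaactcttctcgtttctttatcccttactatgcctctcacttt

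The thresholded list was the top of the pooled ranking. All 2005 thresholded peaks were the 2005 strongest pooled regions, with the same coordinates and summits, and their lowest signal was 28.2043. On ce11, then, the pooled signal alone told a thresholded peak from a member. The pooled list held 1316 regions in the band, and 40 of them were left out because they overlapped a thresholded peak. A further 19 regions, with signals from 28.0074 to 28.2039, lay above the band yet outside the thresholded list. The members held ranks 2026 to 3341, had a median signal of 23.2 and covered 463026 bp, or 0.462% of the 6 nuclear chromosomes. Their −log10 q-values, as the authors deposited them, ran from 1.81 to 3.16, against 3.04 to 3.52 for the thresholded peaks.

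The regions closest to the band edges were picked by signal, so their likeness in signal follows from the choice. Just inside the upper edge were regions at jkk-1, which encodes a kinase of the JNK pathway (27.9992), fmi-1, a flamingo-type cadherin (27.9952), and sup-12, an RNA-binding splicing regulator of muscle (27.9947). Just above it, and outside the rule, were a region with the nearest gene start 18335 bp away (28.0174) and regions nearest mcd-1 (28.0092) and the dopamine receptor gene dop-1 (28.0074). Just inside the lower edge were regions at pot-3, idpc-2 and C34D10.1, with 20.0110, 20.0044 and 20.0021. Just below it lay regions nearest abts-3 (6813 bp away), D2096.13 and ptp-3, with 19.9990, 19.9934 and 19.9876.

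For comparison, the 1276 pooled regions next below a signal of 20 that overlapped no thresholded peak were taken as the next lower regions (signal 16.49 to 19.999). The comparisons of location and sequence treat regions as units. The p-values cover counting over regions of 1 pooled data set and not the spread between animals, and neighbouring regions are not independent.

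Member summits lay between protein-coding genes less often than thresholded summits and more often than the next lower ones. The summit was between genes at 756 of 1276 members (59.2%, 95% Wilson interval in the plot of locations), at 65.4% of thresholded peaks and at 51.3% of the next lower regions. The difference from the thresholded peaks was −6.19 percentage points (95% Newcombe interval −9.59 to −2.79, Fisher's exact test, two-sided, adjusted exact p = 0.00148 over 16 location comparisons). The difference from the next lower regions was 7.99 points (4.14 to 11.8, adjusted exact p = 0.000307). In regions taken from 1 replicate's own list at the same ranks, the difference from the thresholded peaks was larger, at −11.1 points in replicate 1's list and −16.6 points in replicate 2's. In replicate 2's list the difference from the regions next below was 4.58 points (Fisher's exact test, adjusted p = 0.134). All 30000 pooled regions gave 42.2%, and between-gene sequence made up 37.3% of the chromosomes.

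Coding exons took the reverse order. They held 68 member summits (5.33%), against 3.24% of thresholded summits, a difference of 2.09 points (0.682 to 3.62, Fisher's exact test, adjusted exact p = 0.0115). The next lower regions reached 12.8%, so that the members were 7.45 points lower (−9.68 to −5.24, adjusted exact p = 8.05e-10), and all pooled regions reached 17.6%. In the single-replicate lists the difference from the thresholded peaks kept its sign and was larger, with 9.14% in coding exons in replicate 1's list and 15.1% in replicate 2's. In replicate 2's list the difference from the regions next below was −1.95 points (adjusted exact p = 0.348). Among members of signal 24 and above, the differences from the thresholded peaks were 0.900 points for coding exons (adjusted exact p = 0.541) and −5.67 points between genes (adjusted exact p = 0.0624).

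**Figure D1:**
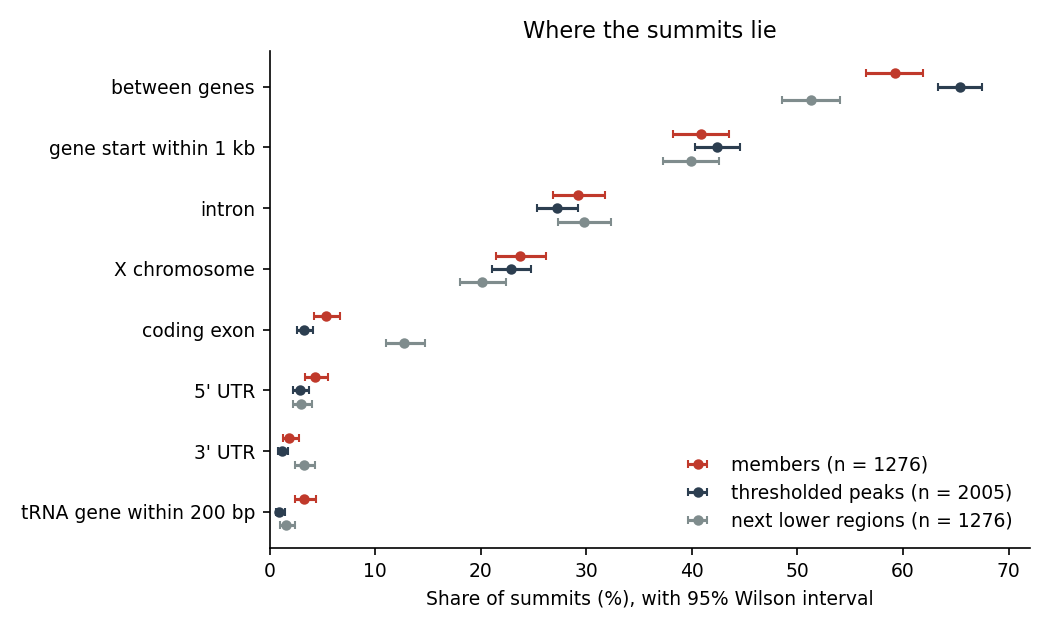
Share of summits (x axis, percent, with 95% Wilson intervals) in each kind of location (y axis) for members, thresholded peaks and the next lower regions. Members lie between the other sets for coding exons and between-gene sequence, and above both for tRNA genes, where 3.29% stands against 0.898% and 1.57%.

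Other classes did not pass the test against the thresholded peaks. Introns held 29.2% of member summits, against 27.2% (difference 2.00 points, −1.14 to 5.19, adjusted exact p = 0.289). The 5′ UTR held 4.31% against 2.89% (adjusted exact p = 0.0774) and the 3′ UTR 1.88% against 1.20% (adjusted exact p = 0.197). A protein-coding gene start lay within 1 kb of 521 members (40.8%), against 42.4% of thresholded peaks, and the interval of the difference ran from −5.004 to 1.90 points (adjusted exact p = 0.472). Of these 521 summits, 395 (75.8%) lay on the upstream side of the start, against 82.8% for the thresholded peaks and 69.9% for the next lower regions, a share that was not tested.

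The X chromosome held 303 members (23.7%), close to the 22.9% of thresholded peaks (interval of the difference −2.09 to 3.85 points, adjusted exact p = 0.665) beside 19.3% of all pooled regions and 17.7% of the sequence. Against the next lower regions (20.1%) the difference did not pass the test (Fisher's exact test, adjusted p = 0.0716). The remaining members were spread over chromosome I with 190, II with 196, III with 225, IV with 195 and V with 167. The median distance from a member summit to the nearest thresholded summit was 12403 bp, 76 members lay within 1 kb of one and the closest was 457 bp away. Leaving out overlapping regions limits these distances from below.

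tRNA genes, which RNA polymerase III transcribes, were the location in which the members were higher than each neighbouring group with both differences past the test. Of the members, 42 (3.29%) had a summit within 200 bp of one of 612 annotated tRNA genes, against 18 thresholded peaks (0.898%), 20 of the next lower regions (1.57%) and 198 of all pooled regions (0.660%). The difference from the thresholded peaks was 2.39 points (1.40 to 3.57, Fisher's exact test, adjusted exact p = 1.05e-05), and from the next lower regions 1.72 points (0.530 to 2.98, adjusted exact p = 0.0173). In bins of 1000 pooled regions, the share was 0.7% and 1.1% in the first 2 bins, 3.3% at ranks 2001 to 3000, 2.0% at ranks 3001 to 4000 and 1.2% in the bin after that.

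The tRNA result differed between the replicates' own lists, and that difference was not tested. In replicate 1's own list at the same ranks 22 of 1029 regions (2.14%) lay at a tRNA gene, 1.24 points above the thresholded peaks (adjusted exact p = 0.0190) and 0.875 points above the regions next below (adjusted exact p = 0.305). In replicate 2's own list 14 of 1026 (1.36%) did, 0.467 points above the thresholded peaks (adjusted exact p = 0.348) and 0.487 points above the regions next below (adjusted exact p = 0.495). On the autosomes alone, a comparison added after the data had been seen, 20 of 973 members (2.06%) stood against 5 of 1546 thresholded peaks (0.323%) and 9 of 1019 next lower regions (0.883%). With Fisher's exact test the adjusted p was 0.000254 for the first difference and 0.102 for the second.

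The 42 summits lay near 43 tRNA genes (7.03% of those annotated), and 27 of them lay inside the tRNA gene itself. They were on X in 22 cases (52.4%), and X carries 45.1% of all annotated tRNA genes. Of these 42, 22 were between protein-coding genes (59.2% of all members), 19 in an intron (29.2%) and 1 in a 5′ UTR (4.31%). A gene start lay within 1 kb of 11 of them (40.8% of all members). By their RefSeq product names the genes encode tRNAs for 17 amino acids, with at most 4 members each, for tRNA-Asp, tRNA-Gly and tRNA-Val. A tRNA gene of identical sequence occurred elsewhere in the genome for 36 of the 42 summits (85.7%, against 76.6% of all tRNA genes), and how reads that match several copies were placed is not given in the sources used here.

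Replicate values varied between tRNA members, and are given beside those of all members. Replicate 1 ranked the tRNA members at a median of 2772 and replicate 2 at 3759, against 3003 and 3301 for all members. An overlapping region was in both lists for 36 of the 42, and for 89.03% of all members. Each replicate had 8 of the 42 among its 2005 strongest regions. Of all 1276 members, 253 (19.8%) were among those of replicate 1 and 288 (22.6%) among those of replicate 2. At Y43D4A.t2, in an intron of Y43D4A.5, the pooled signal was 27.2, with 17.9 in replicate 1 and 11.8 in replicate 2. At F52H2.t1, in an intron of the amino acid transporter gene aat-3, it was 23.7, with 16.01 and 11.3. At C14B9.t2, a tRNA-Leu gene in an intron of C14B9.3, replicate 1 had 5.34 (rank 23853) and replicate 2 had 23.7 (rank 521). Of other noncoding genes, 13 members had a snoRNA gene within 200 bp (1.02%, against 0.599% of thresholded peaks, 0.627% of the next lower regions and 0.3% of all pooled regions). An snRNA gene was within 200 bp of 1 member (0.0784%, against 0.499%, 0.0784% and 0.0767% in the same order). Neither was tested.

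**Figure D2:**
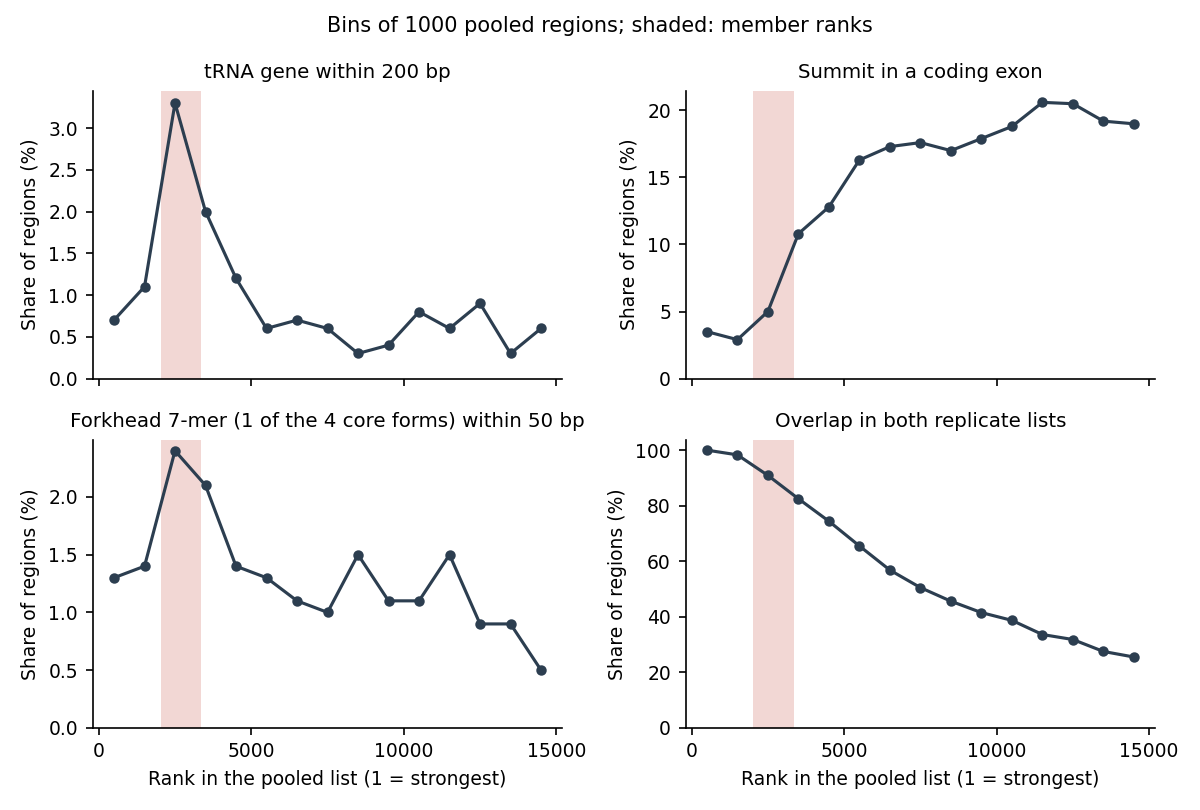
Share of regions (y axis, percent) in bins of 1000 along the pooled ranking (x axis, 1 is the strongest), with the ranks of the members shaded. The tRNA share and the share with GTAAACA, the forkhead form plotted, are highest among the plotted bins at ranks 2001 to 3000 (3.3% and 2.4%). The coding-exon share is 5.0% there and higher in every later bin plotted, and the share found in both replicates falls from bin to bin.

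Of the forkhead core, the form GTAAACA was more common at member summits, and the other forms were not. The core was searched on both strands as 4 forms, namely GTAAACA, its variant GTAAATA, a form ATAAACA and its variant ATAAATA, within 50 bp of the summit and in a control window of the same width 500 bp towards higher coordinates. GTAAACA occurred at 33 member summits (2.59%) and in 13 windows beside them (1.02%; exact McNemar test, two-sided, adjusted exact p = 0.00523 over 15 motifs). It occurred at 1.35% of thresholded summits (difference 1.24 points, 0.284 to 2.35, two-sided Fisher test, adjusted exact p = 0.0151) and at 1.33% of the next lower ones (1.25 points, 0.172 to 2.39, adjusted exact p = 0.0425). Over all pooled regions the share was 1.17%.

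The GTAAACA result did not hold in the list of either replicate alone. In replicate 1's list at the same ranks the share was 2.14%, 0.680 points above its control windows (exact McNemar test, adjusted exact p = 0.358). In replicate 2's list it was 1.17%, 0.292 points above its control windows (adjusted exact p = 0.664) and its difference from the thresholded peaks was −0.177 points. Among members of signal 24 and above, 13 of 507 (2.56%) held it, 1.58 points above the control windows (adjusted exact p = 0.111).

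Taken as a whole, the 4 forms were less frequent at member summits than beside them. At least 1 form occurred at 95 summits (7.45%) but in 127 of their control windows (9.95%, McNemar's exact test, adjusted exact p = 0.0310), and over all pooled regions the share was 9.39%. Thresholded summits had 5.54% (members 1.91 points higher, 0.201 to 3.73, Fisher's exact test, adjusted exact p = 0.0401) and the next lower summits 10.3% (2.90 points more than members, adjusted exact p = 0.0203). In replicate 1's own list the difference from control windows turned to 1.75 points higher at the summit (adjusted exact p = 0.253), and in neither list did the difference from the regions next below pass the test. GTAAATA was at 0.549% of member summits against 2.04% of control windows (adjusted exact p = 0.00180), with 1.78% over all pooled regions. ATAAATA was at 2.43% against 4.70% (adjusted exact p = 0.00274), with 4.63% over all pooled regions. ATAAACA was at 2.19% against 2.74% (adjusted exact p = 0.443), with 2.36% over all pooled regions. Neither GTAAATA nor ATAAATA differed from control windows past the threshold in either replicate's own list (exact McNemar test, adjusted p from 0.218 to 0.720).

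Base composition differed between the windows and between the sets. The summit windows of members averaged 41.4% ± 9.42 G and C (SD, n = 1276 windows), against 35.1% ± 8.87 in their control windows. The thresholded summits averaged 43.5% ± 8.69 and the next lower ones 38.2% ± 10.03. The 33 summits with GTAAACA averaged 40.7% ± 9.41, within the spread of the other members (41.5% ± 9.42). The part of base composition in the motif shares was not tested.

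The 33 GTAAACA members were not of a single kind. Of these, 18 lay between genes, 10 in introns, 3 in a 5′ UTR and 2 in a coding exon, and 18 had a gene start within 1 kb. Over all 1276 members the shares were 59.2%, 29.2%, 4.31%, 5.33% and 40.8% in the same order. Regions overlapped the 33 in both replicate lists in 29 cases (89.03% of all members), and 11 were on X (23.7% of all members). The median offset of the motif from the summit was 26 bp, and 16 of the 33 had it within 25 bp. The search window reached only 50 bp to each side, so evenly placed motifs would also give values near these. Whether the motif gathers at the summit was not tested. At F36D4.5, a gene named by rule for its worse replicate rank, the summit lay 38 bp from the start. Its signals were 19.5 in replicate 1 and 13.4 in replicate 2. At W02H5.16, whose sequence is printed above, it lay 167 bp away with 18.2 and 11.3. Only 2 of the 33 were also at a tRNA gene, and without the tRNA members 31 of 1234 (2.51%) held the motif.

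The GA-rich words were chosen from earlier results on the thresholded peaks and so are not independent evidence for them. They were more common at member summits than in control windows and less common than at thresholded summits. That choice favours the thresholded peaks in the second comparison, so its p-values cannot decide whether members hold fewer of the words. CTCTCTC, which reads GAGAGAG on the other strand and overlaps AGAGAGA shifted by 1 base, was at 87 member summits (6.82%) and in 1.49% of the windows beside them (exact McNemar test, adjusted exact p = 2.35e-11). Thresholded summits had 11.5% (members 4.70 points lower, Fisher's exact test, adjusted exact p = 2.08e-05), and over all pooled regions the share was 2.82%. The difference from the next lower regions (5.88%) was 0.940 points and its interval ran from −0.962 to 2.85 (adjusted exact p = 0.398). In the single-replicate lists CTCTCTC stood 4.18 points above control windows (replicate 1) and 2.44 points above them (replicate 2), both past the threshold. AGAGAGA was at 7.68% of member summits, 1.65% of control windows and 3.24% of all pooled regions.

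GAGACGC was at 60 member summits (4.70%), in 0.627% of control windows (exact McNemar test, adjusted exact p = 1.93e-10) and at 8.63% of thresholded summits (members 3.93 points lower, Fisher's exact test, adjusted exact p = 3.53e-05). It was at 2.43% of the next lower summits (adjusted exact p = 0.00784) and 1.82% of all pooled regions. Its difference from control windows was 3.01 points in replicate 1's own list and 2.05 in replicate 2's. In replicate 2's list the difference from the regions next below was 0.292 points (adjusted exact p = 0.901), and in replicate 1's it was 0.875 (adjusted exact p = 0.497). Among the other GA-rich words, AAGAAGA was at 9.25% of member summits, 4.23% of control windows and 5.20% of all pooled regions. The word CTTCTTC was at 9.33%, 3.997% and 4.42% in the same order, and GAAGAGA at 6.90%, 2.43% and 3.25%. Words of A and T alone were also chosen from earlier results on the thresholded peaks. They were rarer at member summits than in control windows, and both shares are followed by that of all pooled regions. For TTAAAAA they were 8.54%, 15.8% and 16.4%, for TTTAAAA 7.13%, 15.1% and 13.4%, for AAAAATT 13.01%, 25.7% and 25.6%, and for ATTTTTA 7.92%, 13.6% and 13.9%. All of these differences from the control windows passed the exact McNemar test, with adjusted p at most 2.69e-06. In replicate 2's own list GAAGAGA, the word TTAAAAA, the word TTTAAAA and the word ATTTTTA no longer passed it (adjusted p from 0.0969 to 0.355).

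Replicate support was weaker at the members than at the thresholded peaks, as a description, since both replicates fed the pooled signal that chose them. Replicate 1's list held an overlapping region for 1247 members (97.7%) and replicate 2's for 1165 (91.3%). Both lists held one for 1136 members (89.03%), against 99.2% of thresholded peaks and 78.1% of the next lower regions. Of the members, 111 were found in replicate 1 only and 29 in replicate 2 only. With the overlap set to at least 50% of the member's length, 1092 were found in both.

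Few members were strong in both replicates. Only 16 members (1.25%) overlapped 1 of the 2005 strongest regions of each replicate, against 60.9% of thresholded peaks. Members among the 2005 strongest of replicate 1 only numbered 237, those of replicate 2 only 272, and 751 (58.9%) were in neither. With an overlap of at least 50% of the member's length the 16 fell to 9, and counted among the 5000 strongest regions they were 472. Of the 16, 8 had their summit in an intron (29.2% of all members did) and 0 in a coding exon (5.33% of all members), and not all 16 had replicate regions of their own.

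Replicate signals ran against each other across members. The median signal was 13.8 in replicate 1 (middle 50% from 11.0 to 16.8) and 10.02 in replicate 2 (7.43 to 12.7), and the median ranks were 3003 and 3301. Across the 1136 members found in both lists, Spearman's rho between the replicate signals was −0.488, against 0.366 across 1988 thresholded peaks and −0.497 across 996 of the next lower regions. The points share the 2 libraries, and holding the pooled signal within a band favours pairs that are high in one replicate and low in the other, so the sign is no measure of reproducibility.

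**Figure D3:**
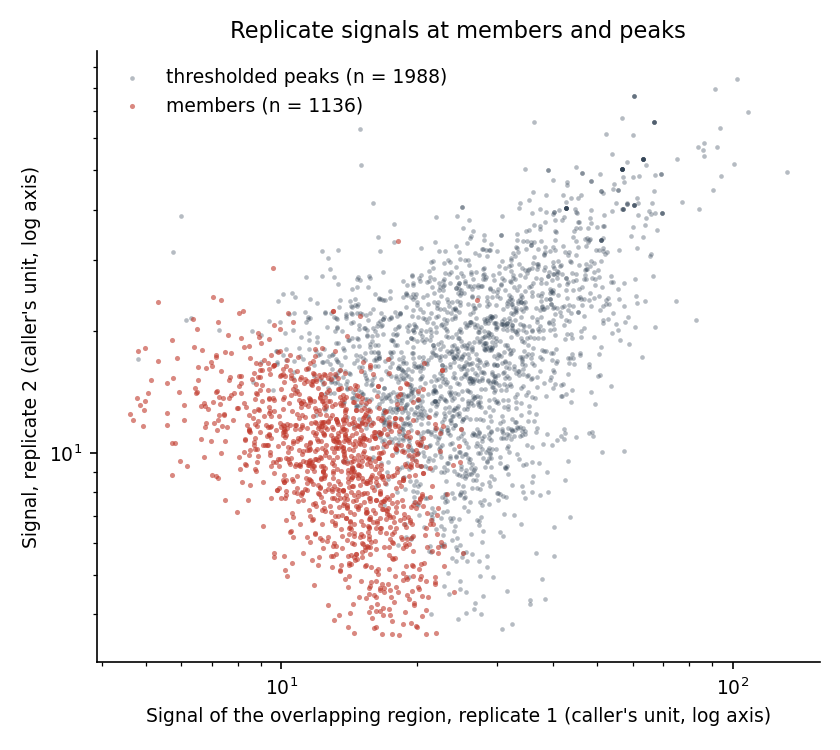
Signal of the overlapping region in replicate 1 (x axis) and replicate 2 (y axis), in the caller's unit on log axes, at 1136 members and 1988 thresholded peaks found in both lists. The members form an oblique band (Spearman's rho −0.488) below the cloud of thresholded peaks (0.366).

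Members were also ordered by the worse of their 2 replicate ranks, which measures strength in both lists and not likeness of the signals. The best of them lay in an intron of sur-7, which encodes a cation diffusion facilitator that acts in vulval induction. Its pooled signal was 24.4 (rank 2471), while its replicate regions held 27.1 (rank 912) and 23.9 (rank 508). A second member of the same intron had 27.4 pooled, 7.34 in replicate 1 (rank 12724) and the same replicate 2 region. A pair of overlapping members in an intron of mpz-1, a multi-PDZ scaffold gene, likewise shared their replicate regions (22.7 and 16.04). Those regions ranked 1309 in replicate 1 and 1291 in replicate 2, and the pooled signals of the pair were 26.6 and 25.1.

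The other members among the 12 placed best by their worse replicate rank are given next. Their replicate signals lay above the medians of all members, which follows from choosing them by rank. At nhr-11, a nuclear hormone receptor gene, the pooled signal was 22.3, with 20.7 in replicate 1 and 16.7 in replicate 2. The member 1112 bp from trk-1, which encodes a Trk-type receptor kinase, had 20.9, with 20.1 and 14.3. The member 515 bp from M117.1 had 27.7, with 18.97 and 14.8. A summit nearest gdi-1, encoding a Rab GDP dissociation inhibitor, but in an intron of coq-3, a gene of ubiquinone synthesis, had 27.7, with 18.4 and 14.5. The others were at T28B11.1, C17E4.6 and F36D4.5, nearest C32E12.1 (3011 bp away) and, in an intron of unc-73, nearest F55C7.2. Their replicate 1 signals ran from 18.3 to 20.6 and their replicate 2 signals from 13.4 to 14.9.

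Other members rested on 1 replicate. At ncs-3, in an intron of the stomatin gene unc-1, replicate 1 had 22.0 (rank 1369) and replicate 2 had 3.60 (rank 29067), the largest log2 ratio at 2.61. At cah-4, a carbonic anhydrase gene, the values were 20.97 and 3.58, and at vps-45, a gene of vesicle fusion, 19.9998 and 3.73. The other 5 of the 8 highest ratios were nearest the starts of lgc-50 (3807 bp away), npp-8, dmsr-3, akap-1 and aqp-2 (1973 bp away). They had replicate 2 ranks from 20387 to 29505 and ratios from 2.35 to 2.41. In the other direction, replicate 2 had 17.9 and replicate 1 had 4.81 near mrck-1, a myosin-regulating kinase gene. It had 18.2 against 4.99 at the syntrophin gene stn-1, and 24.4 against 7.07 at usp-14. At egl-27 and hbl-1, the latter a heterochronic zinc finger gene, summits more than 5 kb from the start had 19.05 and 16.9 in replicate 2 and 5.71 and 5.32 in replicate 1.

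A member lay within 1 kb of the start of 512 of 19973 protein-coding genes (2.56%), with each summit given to the nearest start. Thresholded peaks reached 814 genes (4.08%), and 22 genes had both, which is 4.30% of the first list and 2.70% of the second. Leaving out regions that overlap a thresholded peak can lower that number. The 22 included lin-28, a heterochronic RNA-binding protein gene, unc-42, a homeobox gene of neuron identity, syd-2, an active-zone scaffold gene, and lgg-1 and lgg-2, the Atg8-type genes of autophagy. The gene lists below were fixed with earlier results in view, and their counts are descriptions. Thresholded counts were part of those earlier results.

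Most lists held few genes with a member, and the share over all protein-coding genes was 2.56%. Of the 78 ribosomal protein genes, 9 had a member (11.5%) and 28 a thresholded peak (35.9%), with 1 gene, rpl-42, in both. The strongest of the 9 were at rps-17 (signal 26.2, with 22.1 in replicate 1 and 7.03 in replicate 2), rpl-7 (25.6, with 19.2 and 9.91) and rps-5 (23.6, with 14.1 in replicate 1 and no region in replicate 2). These 3 were higher in replicate 1. In replicate 1's list alone at the same ranks 4 ribosomal protein genes were reached, and in replicate 2's 3. Among 70 mitochondrial ribosomal protein genes, 5 had a member (7.14%), led by mrpl-28 (27.5), mrps-16 (26.6) and mrpl-47 (25.95). The first 2 of them were higher in replicate 2, at 16.5 against 9.62 and 15.7 against 12.8. The next lower regions, which reached 504 protein-coding genes in all, had 2 ribosomal and 3 mitochondrial ribosomal protein genes.

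The next lists had from 2 to 4 genes with a member each, and the share over all protein-coding genes was 2.56%. Of 40 translation factor genes, 3 had one (7.50%): eef-1B.2, eif-3.E and eif-2beta, with signals from 23.6 to 23.9. Of 47 splicing factor genes, 4 had one (8.51%), among them rsp-1 (26.9), snr-6 (25.9) and snrp-3 (24.3). Of 33 proteasome genes, 3 had one (9.09%), and these were pas-4 (25.5), rpn-9 (20.8) and rpt-2 (20.6), with replicate 1 ranks from 1690 to 2364 and no region (pas-4) or ranks of 21065 and 23639 in replicate 2. Of 51 respiratory chain and ATP synthase genes only 2, atp-3 and asg-2, had a member (3.92%), while 15 had a thresholded peak (29.4%). The next lower regions reached 4 translation factor, 3 splicing factor and 4 proteasome genes, and 1 gene of the respiratory chain list.

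Genes of the nervous system were reached by both lists in different proportions. Over all protein-coding genes the shares were 2.56% with a member and 4.08% with a thresholded peak. Of 40 pan-neuronal and synaptic genes 5 had a member (12.5%) and 14 a thresholded peak (35%). The members were at sng-1, encoding synaptogyrin (26.5), unc-36, a calcium channel subunit gene (26.2), syd-2 (23.1), unc-18 and maco-1. At sng-1 and unc-36 replicate 2 was higher (16.95 against 9.16, and 22.2 against 8.07), and at syd-2 replicate 1 was (19.3 against 6.19). Of 144 neuropeptide and insulin genes 8 had a member (5.56%) and 3 a thresholded peak (2.08%), a difference that was not tested. They were nlp-41 (27.3), nlp-14 (25.98), nlp-4 (24.4), flp-18, nlp-9, flp-9, nlp-21 and ins-30, and the regions at the same ranks of the single-replicate lists reached 5 genes of this list in replicate 1 and 2 in replicate 2, not necessarily the same genes. The next lower regions reached 4 genes of the pan-neuronal and synaptic list and 3 of the neuropeptide and insulin list.

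Transcription factor and signalling lists held few genes with a member, and their shares lay on either side of the 2.56% of all genes. Of 274 nuclear hormone receptor genes 7 had a member (2.55%), including nhr-255 (23.1), nhr-247 (22.7), nhr-11 (22.3) and nhr-67 (20.1), which acts in the anchor cell. The member at nhr-255 lay on a tRNA-Leu gene. Of 100 homeobox genes 1 had one, unc-42 (22.0), with 7.37 in replicate 1 and 11.7 in replicate 2. None of 15 forkhead and 40 bHLH genes had one. Of 33 Wnt genes 2 had one (6.06%), lin-18, a Ryk receptor gene (23.8), and dsh-1, a Dishevelled gene (21.7).

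Single members were at lin-28 (22.2), the semaphorin gene mab-20 (26.8), the cilia gene dyf-2 (26.3), the linker histone gene his-24 (25.04), the Ras pathway scaffold gene cnk-1 (23.6) and the replication helicase gene mcm-7 (20.5). The chaperone genes dnj-7 (22.6) and sti-1 (22.4) and the muscle genes unc-45 (25.3) and unc-68 (21.1) also had one each. Of 1365 chemoreceptor genes 3 had one (0.2198%), at srd-33, srlf-33 and srlf-29, with signals from 22.17 to 24.01. No member lay at the start of any of the 176 cuticle collagen, 72 germline, 54 intestine, 45 molting or 36 insulin signalling genes. The same held for the 35 Notch, 32 aminoacyl-tRNA synthetase, 31 major sperm protein, 23 TGF-beta and 21 vacuolar ATPase genes. At the 2.56% of all protein-coding genes, most lists this short would hold few or no genes with a member, and these absences were not tested.

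**Figure D4:**
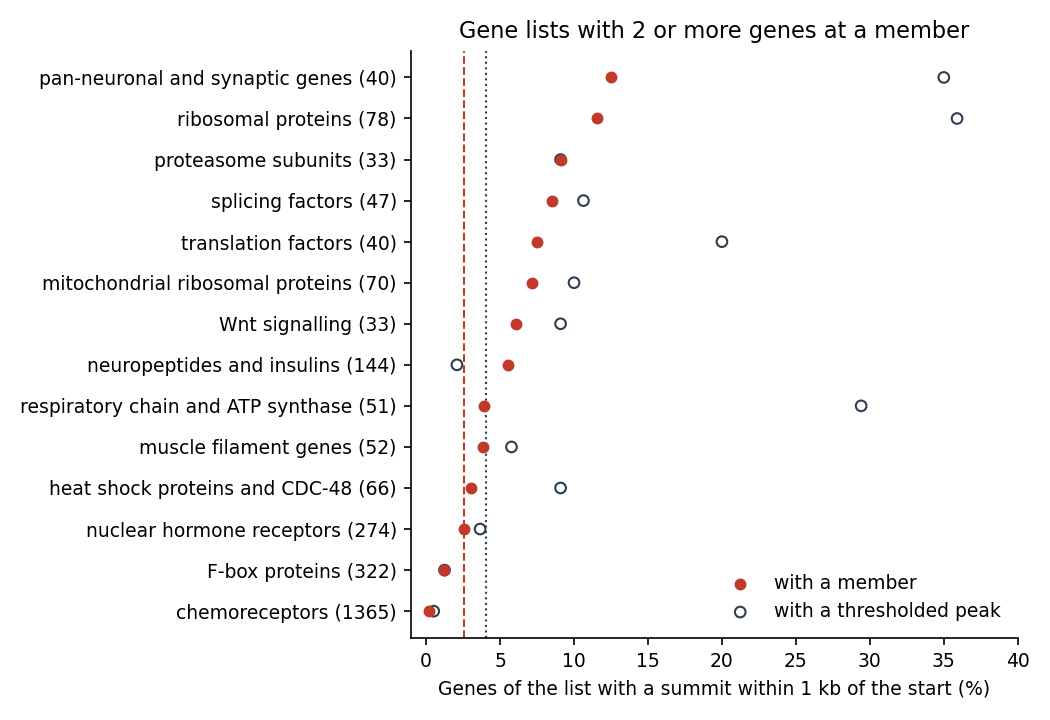
Share of the genes of each list (y axis, list size in brackets) with a summit within 1 kb of the start (x axis, percent), for members (filled) and thresholded peaks (open). The dashed and dotted lines give the shares of all genes, 2.56% and 4.08%, and ribosomal protein genes stand at 11.5% and 35.9%.

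A few stretches held several members. Chromosome IV from 7029075 to 7048386 held 7 members and 5 thresholded summits around cogc-2, klp-18 and tin-9.1. Around egl-27 on chromosome II, 6 members lay between 6822046 and 6837604 with 1 thresholded summit. On X, 6 members lay between 16359574 and 16379387, at ace-1, nhr-28 and sur-7, among 15 thresholded summits. A cluster of F-box genes on chromosome II held 5 members between 1645420 and 1656954, at fbxb-15, fbxb-20 and fbxb-21, with signals of 24.2, 26.2 and 24.4, and at neighbouring genes. F-box genes as a list had 4 of 322 (1.24%) with a member, against 2.56% of all protein-coding genes. Of these 4 genes, 3 were in this cluster. Thresholded peaks also reached 4 of the 322.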

How the data were processed

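Both libraries were ChIP-seq of tagged FKH-10 in whole L3 larvae. Per the file names and labels, the authors deposited narrowPeak lists for each replicate, for the pooled reads and for the list thresholded by the irreproducible discovery rate (IDR), on ce11 and ce10. The signal of each region comes from the authors' peak caller, and its scale is not stated. The authors also deposited a −log10 q-value per region. Aligner, peak caller, IDR threshold and read number: not given in the sources used here. As a result, the depth behind a signal is unknown, and the control was not analysed here.

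The members, gene lists, motifs and tests were chosen with earlier results of these data known. The ce11 coordinates lay within the WBcel235 chromosomes, and genes came from Ensembl release 115 on that assembly, with tRNA product names and sequences from RefSeq's copy of it. A summit was classed in the order coding exon, 5′ UTR, 3′ UTR, intron, between genes. Shares were compared with Fisher's exact or exact McNemar tests (two-sided, scipy 1.17.1), with Benjamini-Hochberg adjustment over 16 location comparisons and within 3 families of 15 motif comparisons, and a threshold of 0.05. Intervals are Wilson or Newcombe at 95% and cover counting over regions only. Replicate values and gene-list counts were given no test. The functions were tested on simulated data.

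Named genes are those at the 12 members whose worse replicate rank was best, the 8 with the highest and the 8 with the lowest log2 signal ratio, the 3 closest to each band edge and up to 3 of each list. A summit with no protein-coding gene start within 1 kb was named by the nearest start. tRNA members, GTAAACA members outside this rule, shared genes and dense stretches were picked after their values were seen. In the single-replicate alternatives, regions of 1 replicate's list at ranks 2026 to 3341 that overlap no thresholded peak stood in for the members. The sequence and values of 1 GTAAACA member are not reported here.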

Additional observations from a re-analysis of the deposited data

How the results depend on the processing

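No paired analysis was possible because the series has 1 group. The number of members stayed within 1.5 times in the ce10 lists (1241), with removal only at 50% overlap and without 3 members close to a thresholded summit. All changes below are differences in percentage points unless stated. With members of signal 24 and above only (507), calls were lost for coding exons against thresholded peaks (0.900), between-gene sequence against them (−5.67), tRNA genes against the next lower regions (1.98), GTAAACA against control windows (1.58), thresholded peaks (1.22) and next lower regions (1.23), and the forkhead core against thresholded peaks (1.17), and 212 genes had a member. Fewer regions enter these tests. In the lists of single replicates, the ranges were 0.467 to 1.24 for tRNA genes against thresholded peaks, 0.487 to 0.875 against the next lower regions, −4.28 to −1.95 for coding exons and 4.58 to 6.03 for between-gene sequence against the next lower regions, and 1.24 to 1.62 for the 3′ UTR against thresholded peaks, where replicate 1's list passed the test. For the forkhead core they were −2.63 to 1.75 against control windows and −0.780 to −0.0972 against the next lower regions. For GTAAACA they were 0.292 to 0.680, −0.177 to 0.791 and −0.487 to 0.292 against control windows, thresholded peaks and next lower regions. For GTAAATA they were −0.877 to 0.292 against control windows and −0.292 to 0.292 against the next lower regions. On autosomes the tRNA difference from the next lower regions was 1.17. A summit window of 100 bp each side gave −2.66 for the core against control windows and 1.33 for GTAAACA against the next lower regions, and a control window on the other side gave −1.96 for the core, none past the threshold. Replicate counts with 50% overlap were 1092 in both and 9 strong in both. Among the strongest 5000 regions they were 472 strong in both, 772 in 1 and 32 in neither. The cause of these changes was not tested.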

Other observations

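Among the 19 regions that lay above the band but outside the thresholded list, 18 overlapped a region in both replicate lists and 0 were among the 2005 strongest regions of both replicates. Of the 2005 thresholded peaks, 47 (2.34%) were in neither replicate's 2005 strongest regions. Soft-masked repeat bases made up 26.7% ± 23.97 of a member's summit window (SD, n = 1276 windows), against 35.9% ± 28.6 in its control window and 23.8% ± 21.7 at thresholded summits.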
